A study of Homo sapiens with 3 samples.

Results

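The 9 genes described here encode replacement histone variants, namely H1-10, H2AX, H2AZ1, H2AZ2, H2AJ, H3-3A, H3-3B, MACROH2A1 and MACROH2A2. They were chosen by name, as the histone variant genes known to give polyadenylated mRNA, and they are 9 of the 61193 genes that could be named in the data. RNA-seq was performed in 3 independent biological replicates of HEK293T, a cell line of human embryonic kidney in which the large T antigen of SV40 is expressed, grown in serum-containing medium under 1 condition without any treatment. The libraries were made from total RNA with a QuantSeq 3′ mRNA kit, which primes at the poly(A) tail and reads the last stretch of each transcript. There was no second group, so the comparisons below are between the genes, between their transcripts and between the replicates.

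In dividing cells most histone protein comes from replication-dependent genes, which are active in S phase and whose mRNA usually ends in a stem-loop in place of a poly(A) tail. Replacement variants are made throughout the cell cycle, mostly from ordinary polyadenylated mRNA with introns in many cases, and are placed into chromatin outside of replication by their own chaperones. H3-3A and H3-3B encode the same H3.3 protein, which marks active genes as well as telomeres and silent repeats, H2AZ1 and H2AZ2 encode H2A.Z proteins of the nucleosomes that flank transcription start sites, and the macroH2A proteins carry a large additional domain and are known from silent chromatin.

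Because the libraries read the 3′ end, the letters at the annotated ends of these genes are shown first. The polyadenylation signal, AATAAA or its common variant ATTAAA, is given in capitals within 30 bases of the last exon of the most counted transcript of each gene, or of its canonical transcript, in GENCODE v44 on GRCh38. The windows of the 4 genes with the highest levels lie at chr3:129314773-129314802 on the minus strand (H1-10), chr17:75776434-75776463 on the minus strand (H3-3B), chr10:70112243-70112272 on the plus strand (MACROH2A2) and chr7:44826794-44826823 on the minus strand (H2AZ2).
H1-10-201: ttttgggcacAATAAAgcgtttaaaccttt
H3-3B-201: atgagactaaAATAAAatttttgaagttaa
MACROH2A2-201: aaaggaaaaaAATAAAagatccagtgtctt
H2AZ2-201: atatgatggaATTAAAtatattctgtgtaa
The windows of the genes with few counts, of which H2AZ1-201 and H3-3A-203 are canonical transcripts that had 0 counts themselves, lie at chr12:14777972-14778001 and chr12:14774995-14775024 on the plus strand (H2AJ, a distal and a proximal end), chr11:119093879-119093908 on the minus strand (H2AX), chr4:99948088-99948117 on the minus strand (H2AZ1) and chr1:226071982-226072011 on the plus strand (H3-3A).
H2AJ-202: aaaagtaatgATTAAAgcttgtgaatctga
H2AJ-203: ggcgggagccAATAAAgttggtgaaaatcg
H2AX-202: gactaattttATTAAAggattgtttttttt
H2AZ1-201: ggataagttcAATAAAggtcatatcccaaa
H3-3A-203: attaaaatacATTAAActatacctgctttt
Neither signal was found in the last 50 bases of the canonical transcript MACROH2A1-217 or of MACROH2A1-218, the most counted transcript of that gene, nor in those of H2AZ2-202, the canonical H2AZ2 transcript with 0 counts, or of H3-3A-202, which had 1 count. Over 19351 canonical transcripts of protein-coding genes, 77.5% held a signal in the last 50 bases. The signal was thus present in a transcript of genes with high and with low counts, and MACROH2A1 was the gene without it in either transcript examined.

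The 16-base histone stem-loop, searched by its consensus, was found in the printed transcripts of 1 of the 9 genes. H2AX-202 held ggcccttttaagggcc from base 553 of its 1592 bases, upstream of the polyadenylation signal shown above. H2AX, the substrate of the kinases that mark DNA double-strand breaks, is known to give both a stem-loop mRNA and a longer polyadenylated one. All of the 65 canonical transcripts of replication-dependent histone genes held the stem-loop, and 3 of these 65 held a polyadenylation signal in the last 50 bases, whereas 0.367% of all canonical transcripts held a stem-loop.

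The deposited counts summed to between 6262175 and 8521624 per replicate. A count of 0 allows up to 3 counts, which equal 0.352 to 0.479 counts per 1000000 (CPM), and such limits and the intervals below cover counting error only. Genes of the mitochondrial genome took 9.59% of the counts in replicate 1, 5.70% in replicate 2 and 25.8% in replicate 3, so replicate 3 stood apart. Levels per transcript length are given in transcripts per 1000000 (TPM), summed over the transcripts of a gene. Of 7 markers of HEK293T, 3 had a mean of at least 1 TPM, compared with 38.2% of all protein-coding genes. The count is near that share, so it does not check the identity of the cells. PAX2 with 8.96 TPM and NES with 2.32 TPM were the highest, while VIM had 0, 6 and 5 counts and NEFL, NEFM and KRT18 had none. The last 300 bases of the canonical transcript are wholly shared with other listed transcripts in VIM and NEFM and 2% own in KRT18, so the limit on shared ends described below applies to these markers too. Of 6 markers of other cell types, 1 reached 1 TPM, and PTPRC and ALB were at 0. COL1A1 was that marker, with 747, 632 and 1129 counts and a mean of 24.8 TPM, above each HEK293T marker. Fewer cells of a type and less RNA per cell cannot be told apart in such bulk libraries.

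The measured levels of the replacement variants fell into 2 ranges far apart. H1-10, H3-3B, MACROH2A2 and H2AZ2 had means between 75.9 and 1587 TPM, while the other 5 genes had means of 5.25 TPM or less. Expressed genes were taken as those with a mean of at least 1 TPM, and high expression as a mean at or above the third quartile of the 13296 expressed genes, 24.1 TPM. On this basis, 5 of the 9 genes were expressed, compared with 38.2% of 19926 protein-coding genes, and 4 of the 9 were high, compared with 12.5%. The same 4 were at or above that quartile in every replicate. The median over the 9 genes was 5.25 TPM, and 0.195 TPM over all protein-coding genes. The limit on shared 3′ ends described below applies to the 5 genes of the lower range. A level of the whole gene cannot be read from their values, and the split, these counts and the median rest on them.

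**Figure D1:**
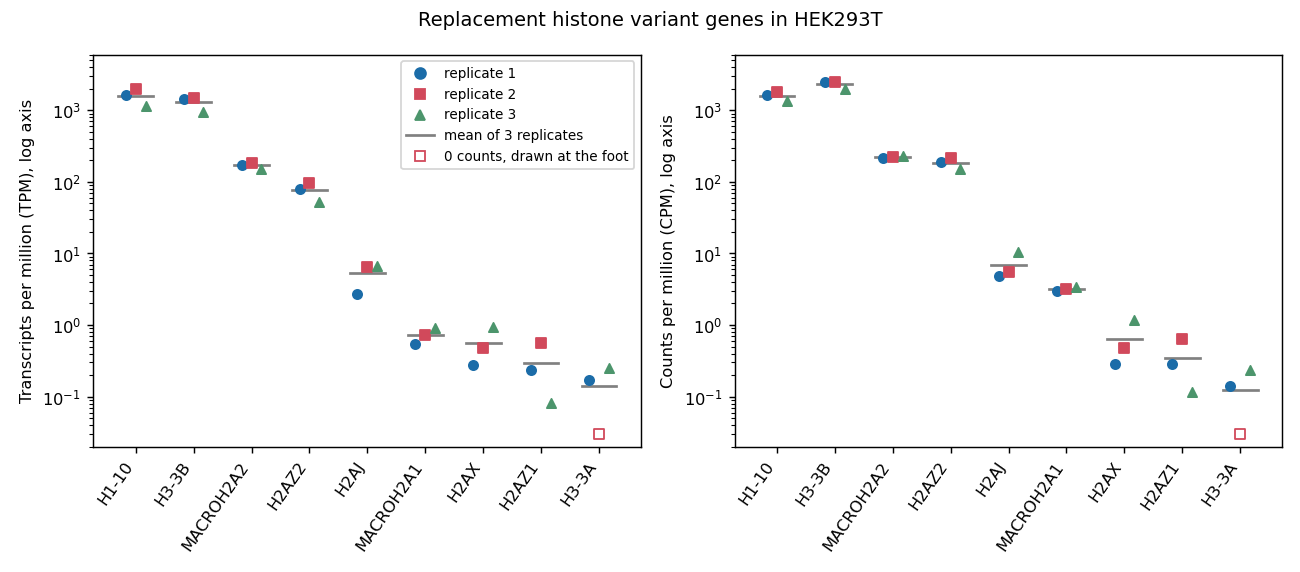
Level of each replacement histone variant gene in each of the 3 replicates, in TPM on the left and in CPM on the right, both on log axes, with the mean as a bar. The 4 genes from H1-10 to H2AZ2 lie at 52.8 TPM or more in every replicate, and the open square at the foot marks the 0 counts of H3-3A in replicate 2.

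H1-10 (ENSG00000184897, chr3:129314771-129316286, minus strand) encodes the linker histone H1.10, which binds the DNA between nucleosomes and, unlike the main linker histones, is not made in step with DNA replication. It had 11392, 11361 and 11621 counts in replicates 1 to 3. Its level was 1656 TPM in replicate 1, 1955 TPM in replicate 2 and 1149 TPM in replicate 3, with a mean of 1587 ± 407 TPM (SD, n = 3). The counts of the replicates were close to each other, while the level in replicate 3 was the lowest. H1-10 ranked 39th among protein-coding genes by mean TPM. The protein-coding gene just above it was PSAT1, an enzyme of serine synthesis, with 1636 ± 504 TPM, and the gene just below was MT-CO1, a subunit of respiratory complex IV, with 1546 ± 983 TPM (SD, n = 3 in both cases). These 3 means differ by less than their SDs. H1-10 has 1 listed transcript without an intron, and all of its counts were on it.

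H3-3B (ENSG00000132475, chr17:75776434-75785893, minus strand), 1 of the pair of H3.3 genes, had the most counts of the 9, with 17632, 15569 and 17107. Its level was 1436 TPM in replicate 1, 1501 TPM in replicate 2 and 948 TPM in replicate 3, with a mean of 1295 ± 302 TPM (SD, n = 3). Replicate 3 was again the lowest, and the range overlapped that of H1-10. In TPM, H1-10 was above H3-3B in 3 of 3 replicates. In CPM, which is not divided by length, the order was the opposite in 3 of 3 replicates, with 2335 ± 284 CPM for H3-3B and 1600 ± 226 CPM for H1-10 (SD, n = 3), and the ranges did not overlap. The main H3-3B transcript has 2705 bases and that of H1-10 has 1516, and with reads from the 3′ end alone a longer transcript does not give more reads, so the division by length sets which of them comes first.

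MACROH2A2 (ENSG00000099284, chr10:70052544-70112282, plus strand) encodes macroH2A2, a variant with a macro domain. It had 1531, 1373 and 1937 counts, and its level was 175 TPM, 185 TPM and 150 TPM in replicates 1 to 3, with a mean of 170 ± 18.0 TPM (SD, n = 3). H2AZ2 (ENSG00000105968, chr7:44826791-44848087, minus strand), which encodes H2A.Z.2, had 1316, 1369 and 1293 counts and a level of 79.3 TPM, 95.5 TPM and 52.8 TPM, with a mean of 75.9 ± 21.5 TPM (SD, n = 3). In both genes replicate 2 was the highest in TPM and replicate 3 the lowest. The ranges of these 2 genes did not overlap in TPM, but they did in CPM, where the means were 222 ± 5.01 for MACROH2A2 and 186 ± 33.5 for H2AZ2 (SD, n = 3).

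Much of the spread of the levels of H1-10, H3-3B and H2AZ2 went with the mitochondrial share of the library. When mitochondrial genes were left out and TPM was rescaled, the coefficient of variation over the replicates went from 25.7% to 5.83% for H1-10, from 23.3% to 4.49% for H3-3B and from 28.4% to 8.77% for H2AZ2. That of MACROH2A2 was 10.6% before and 11.5% after. In CPM the coefficient of MACROH2A2 rose from 2.26% to 15.5%, whereas those of H1-10, H3-3B and H2AZ2 fell in CPM too. The level of MACROH2A2 in rescaled TPM was 226 TPM, 219 TPM and 270 TPM, so replicate 3 turned from the lowest to the highest. Over the 1294 genes outside the mitochondrial genome whose counts reached 1000 or more in each replicate, the median coefficient went from 26.4% to 10.1%. H1-10 then stood at 2172 ± 127 TPM and H3-3B at 1778 ± 79.8 TPM (SD, n = 3), with ranges that no longer overlapped.

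**Figure D2:**
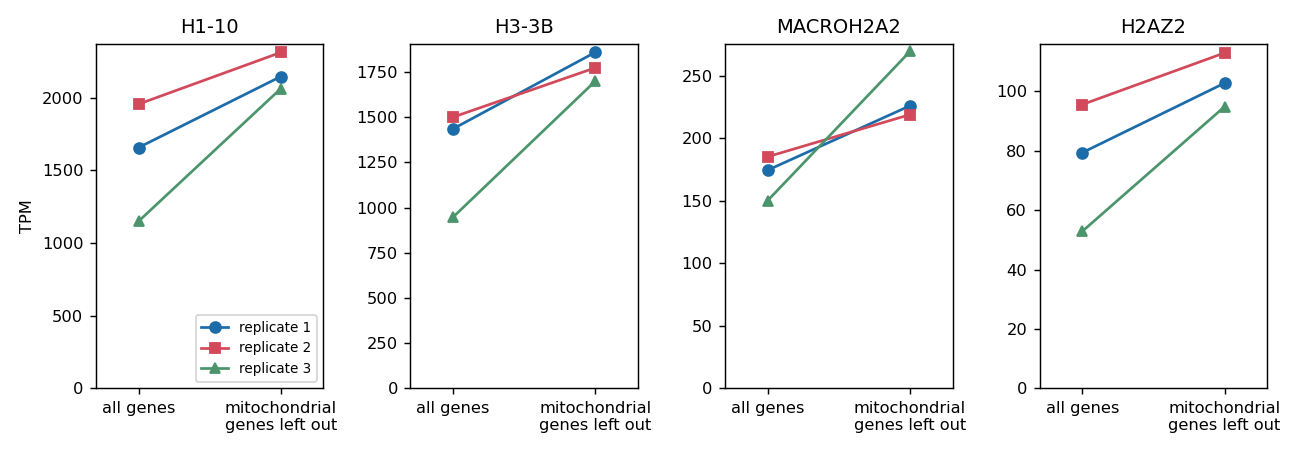
TPM of the 4 genes with high expression in each replicate, with all genes in the total on the left of each panel and with mitochondrial genes left out on the right; each vertical axis starts at 0. For H1-10, H3-3B and H2AZ2 the replicates draw together, whereas for MACROH2A2 replicate 3 moves from the bottom to the top.

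H2AJ (ENSG00000246705, chr12:14774405-14778002, plus strand) encodes H2A.J, a replacement H2A known to accumulate in senescent cells. It had 34, 34 and 89 counts, with 2.68 TPM in replicate 1, 6.39 TPM in replicate 2 and 6.69 TPM in replicate 3, and a mean of 5.25 ± 2.23 TPM (SD, n = 3). It was the only 1 of the 9 genes at a medium level, between the quartiles of expressed genes. Its range overlapped neither that of H2AZ2 above it nor that of MACROH2A1 below it. Of its 157 counts, 84.1% were on H2AJ-202, a transcript of 3107 bases annotated as a target of nonsense-mediated decay, which ends at the distal signal printed above. The protein-coding transcript H2AJ-203, which ends at the proximal signal, had 1, 11 and 13 counts, so replicate 1 held fewer of them than the other replicates did. In TPM, H2AJ-202 had 2.34, 1.93 and 3.67 in replicates 1 to 3, and H2AJ-203 had 0.342, 4.46 and 3.03. H2AJ-203 was thus higher in replicate 2 and lower in replicates 1 and 3. The 3′ end of H2AJ-202 is covered by no other listed transcript, whereas 16% of that of H2AJ-203 is its own. Because of the limit on shared 3′ ends described below, the share of each transcript in the H2AJ mRNA cannot be read from these counts.

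MACROH2A1, H2AX, H2AZ1 and H3-3A were all below 1 TPM in every replicate with all genes in the total. With mitochondrial genes left out, MACROH2A1 had a mean of 1.07 ± 0.50 TPM (SD, n = 3), above the level taken as expressed, and H2AX had 1.67 TPM in replicate 3. MACROH2A1 (ENSG00000113648, chr5:135334381-135399914, minus strand), the better known macroH2A gene, had 21, 20 and 29 counts, with 0.540 TPM, 0.727 TPM and 0.914 TPM and a mean of 0.727 ± 0.187 TPM (SD, n = 3). H2AX (ENSG00000188486, chr11:119093874-119095465, minus strand) had 2, 3 and 10 counts, with 0.273 TPM, 0.485 TPM and 0.929 TPM and a mean of 0.562 ± 0.335 TPM (SD, n = 3). In both genes replicate 3 was the highest, and their ranges overlapped.

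H2AZ1 (ENSG00000164032, chr4:99948086-99950355, minus strand), which encodes H2A.Z.1, had 2, 4 and 1 counts, with 0.239 TPM, 0.566 TPM and 0.0814 TPM and a mean of 0.296 ± 0.247 TPM (SD, n = 3). H3-3A (ENSG00000163041, chr1:226061851-226072019, plus strand), the other H3.3 gene, had 1, 0 and 2 counts, with 0.168 TPM, 0 TPM and 0.248 TPM and a mean of 0.139 ± 0.127 TPM (SD, n = 3). These values rest on so few reads that the order of H2AX, H2AZ1 and H3-3A could not be told at this depth. Without replicate 2 the mean of H2AZ1 was 0.160 TPM, and without replicate 3 the mean of H3-3A was 0.0842 TPM.

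The split between high and low measured levels ran through each pair of paralogs. The limit on shared 3′ ends described below applies above all to the low gene of each pair. Of the reads counted on the pair of H3.3 genes, H3-3B had 99.9943% in replicate 1 (95% Wilson interval 99.9679 to 99.999), all of 15569 in replicate 2 and 99.9883% in replicate 3 (95% Wilson interval 99.9574 to 99.9968). The log2 ratio of H3-3B to H3-3A in TPM was 13.06 in replicate 1 and 11.90 in replicate 3, with a mean of 12.48 ± 0.82 (SD, n = 2), and had no value in replicate 2. With 2 values an exact sign-flip test cannot give a two-sided p below 0.5, which is what it gave.

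For the pair of H2A.Z genes, H2AZ1 held 0.152% of the counts in replicate 1 (95% Wilson interval 0.0416 to 0.552), 0.291% in replicate 2 (0.113 to 0.747) and 0.0773% in replicate 3 (0.0136 to 0.436). The log2 ratio of H2AZ1 to H2AZ2 in TPM was −8.37 ± 0.97 (SD, n = 3). For the macroH2A genes, MACROH2A1 held 1.35% of the counts in replicate 1 (95% Wilson interval 0.887 to 2.06), 1.44% in replicate 2 (0.931 to 2.21) and 1.48% in replicate 3 (1.03 to 2.11). The log2 ratio of MACROH2A1 to MACROH2A2 in TPM was −7.90 ± 0.49 (SD, n = 3). Both ratios had the same sign in 3 of 3 replicates. They lay many SDs from 0, though neither the SDs nor the intervals cover the limit on shared 3′ ends. The exact two-sided sign-flip permutation test gave p = 0.25 for each, the smallest value that 3 replicates allow.

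The rows of the deposited tables are transcripts, and the low gene of each pair was one whose canonical transcript has little or no sequence of its own at the 3′ end. The 9 genes have 66 listed transcripts, of which 16 had any counts. A base was taken as a transcript's own if no other listed transcript covers it on the same strand in GENCODE v44. The 34 transcripts without any own exonic base had 0 counts over the 3 replicates. The 10 transcripts whose last 300 bases were wholly their own held 93634 counts, 99.9% of all counts of the 9 genes, and 8 of these 10 had counts. The 22 transcripts between these groups held 119 counts, or 0.127%. For 6 of the 66 transcripts the deposited length differed from that in GENCODE v44, so their ends may differ too.

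The same was seen across the genome. Of 76836 transcripts without an own base, 0.640% had counts, compared with 26.6% of 146722 transcripts with own bases. Of 10777 protein-coding genes with at least 1 transcript whose end was wholly its own, 53.9% were expressed and 19.4% were high. Of 9149 genes without such a transcript, 19.7% were expressed and 4.42% were high. H1-10, H3-3B, MACROH2A2, H2AZ2, H2AJ and H3-3A are in the first group, and MACROH2A1, H2AX and H2AZ1 are in the second.

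**Figure D3:**
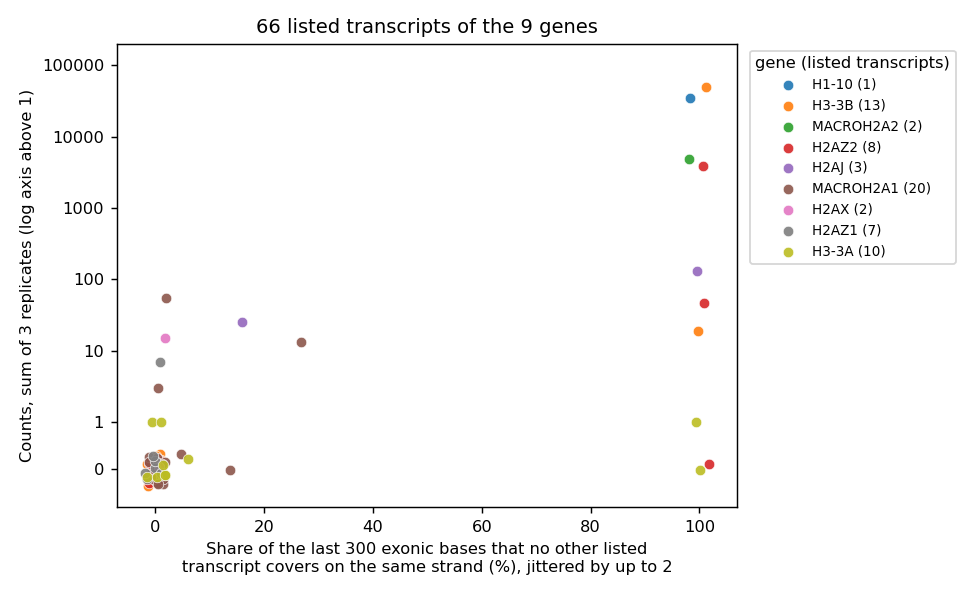
Each point is 1 of the 66 listed transcripts of the 9 genes, coloured by gene. The horizontal axis gives the share of its last 300 exonic bases that no other listed transcript covers, and the vertical axis its counts summed over 3 replicates, with a log axis above 1. All transcripts with more than 100 counts are at the right edge, where the end is wholly own, while no transcript at the left edge exceeds 54 counts.

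Within the genes the counts followed the same division. All but 19 of the 50308 counts of H3-3B were on the canonical H3-3B-201, which runs on past every other H3-3B transcript and so has its last 300 bases to itself. H2AZ2-201 held 98.8% of the H2AZ2 counts and MACROH2A2-201 held 100%, both with a wholly own end. By contrast, the canonical H2AZ1-201 shares its whole sequence with other listed transcripts and had 0 counts. The 7 counts of H2AZ1 were all on H2AZ1-204, a retained-intron transcript with 390 own bases. The canonical H3-3A-203, with 6% of its end own, had 0 counts, and so did MACROH2A1-217, with 0%. Of the 70 counts of MACROH2A1, 77.1% were on MACROH2A1-218, a transcript of 10982 bases with 9038 own bases and no defined coding sequence. All 15 counts of H2AX were on H2AX-202, of whose end 1.67% is own.

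How reads that fall on several listed transcripts were treated is not given in the sources used here. No transcript without own bases had counts. A level of the whole gene thus cannot be read from the values of H2AJ, MACROH2A1, H2AX, H2AZ1 and H3-3A. The part of the shared ends in these low values was not tested. A further H3-3A transcript, H3-3A-202, ends on bases of its own within an intron of other transcripts and had 1 count in all. H2AZ2-202, canonical in GENCODE v44, had 0 counts although its end is wholly own in that annotation, where it has 3026 bases and the deposited tables give it 752. Among the high genes, 9 of 13 transcripts of H3-3B, 5 of 8 of H2AZ2 and 1 of 2 of MACROH2A2 also lack own bases. The values of these genes thus stand for their counted transcripts.

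**Figure D4:**
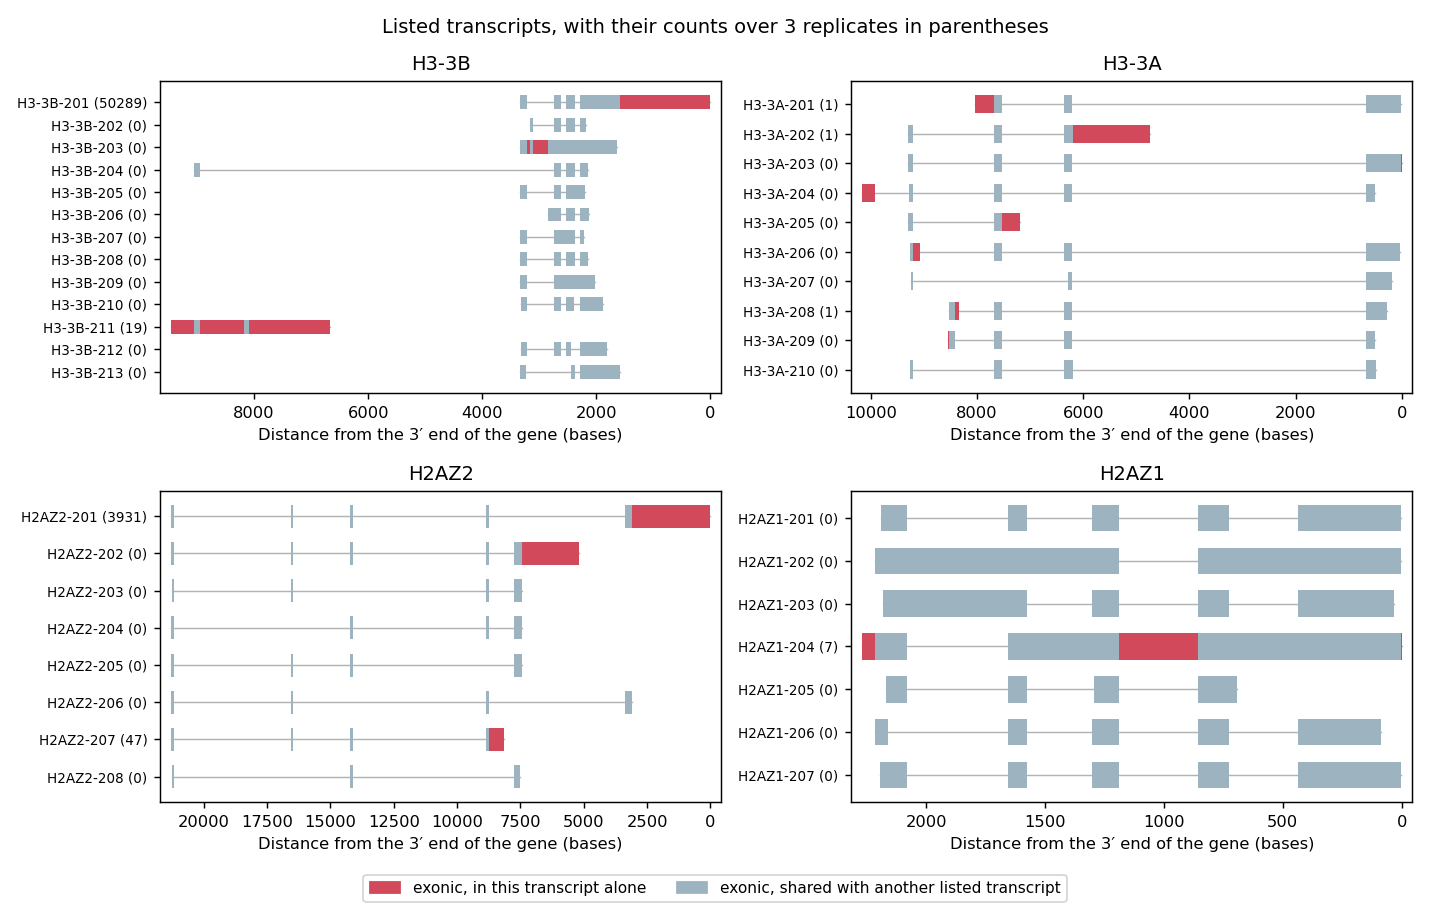
Listed transcripts of both H3.3 genes and both H2A.Z genes in GENCODE v44, drawn to scale by distance from the 3′ end of the gene, with counts over 3 replicates in parentheses. Red marks exonic bases in that transcript alone and grey those shared with another. H3-3B-201 and H2AZ2-201 end in a long red stretch and hold 50289 and 3931 counts, while the final exons of H2AZ1 and of most H3-3A transcripts are grey and hold almost no counts.

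H3-3A and H2AZ1 also have copies of their 3′ ends elsewhere in the genome. The last 300 bases of H3-3A-203 matched 20 other places over at least 75 bases, the read length, at 90% identity or more, and 6 of them at 95% or more. The end of H2AZ1-201 matched 5 other places, of which 2 were at 95% or more, and that of H2AJ-203 matched 2, with none at 95%. None was found for the ends of H1-10-201, H3-3B-201, MACROH2A2-201, H2AZ2-201, H2AX-202 or MACROH2A1-217. Reads of the copied ends cannot be told apart from those of the copies where the letters are the same.

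Processed pseudogenes, which are copies of mRNA inserted back into the genome, had more counts than H3-3A itself. All 31-base words of H3P6 (chr2:174719908-174720318, plus strand) are also in H3-3A transcripts, and it had 43, 39 and 53 counts in replicates 1 to 3. No other processed pseudogene shared 90% or more of its words with any of the 9 genes. Further pseudogenes, named here after their values were seen, were H3P16, which shares 85.0% of its words and had 191, 176 and 189 counts, and H3P47, which shares 73.2% and had 1007, 87 and 81. H3P47 was thus far higher in replicate 1 than in the other replicates. The 10 processed pseudogenes that share at least 10% of their words with H3-3A held 1646, 688 and 710 counts. When the TPM of H3P6 was added to that of H3-3A, the log2 ratio of H3-3B to H3-3A was 5.82 ± 0.20 (SD, n = 3), compared with 12.48 without it. For the others, the highest such count was for H2AZP3, which shares 37.8% of its words with H2AZ1 and had 17, 24 and 13 counts.

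**Figure D5:**
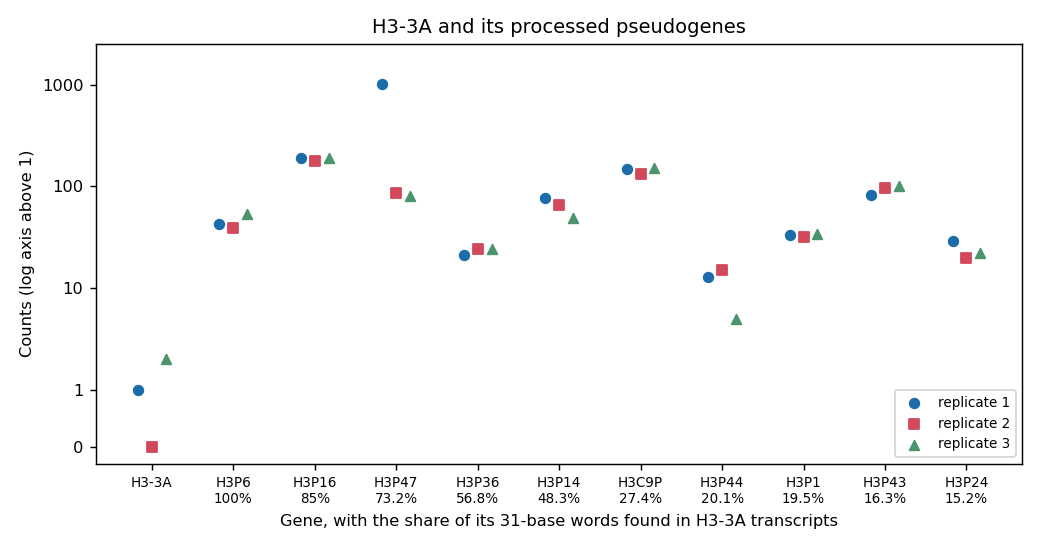
Counts of H3-3A and of the 10 processed pseudogenes that share at least 10% of their 31-base words with it, in each replicate, with a log axis above 1. Every pseudogene lies above H3-3A in every replicate, and H3P47 in replicate 1, at 1007 counts, is the highest point.

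The starts of these genes were described from RefSeq promoter windows on GRCh38.p14, of which 13 belong to the 9 genes, with 4 for H3-3A, 2 for MACROH2A1 and 1 for each other gene. Over the 250 bases before each start, TATAAA on the coding strand was found in 4 of these 13 windows, each of another gene, and in 6.18% of the windows of protein-coding genes. It is printed in capitals in 30 bases from H1-10 (chr3:129316300-129316329), H2AX (chr11:119095479-119095508), H2AZ1 (chr4:99950289-99950318) and H3-3B (chr17:75779791-75779820), all on the minus strand, because it lies at nearly the same distance from the start in each.
H1-10: ccgccatgaagcTATAAAaagccgagagaa
H2AX: gtcctgggggctTATAAAggcggcctcgcg
H2AZ1: aacattctgcagTATAAAgggagcagggaa
H3-3B: gtgaagcgtgccTATAAAaacggaggcgac
The first base of TATAAA lies 31 bases upstream of the start in H1-10, H2AX and H2AZ1 and 29 bases upstream in H3-3B. Of these genes, H1-10 and H3-3B had the highest levels of the 9. H2AX and H2AZ1 were below 1 TPM, values from which a level of the whole gene cannot be read. CCAAT on either strand was found in 9 of the 13 windows, from 7 genes, and in 32.7% of protein-coding windows. GGGCGG on either strand was found in 7 of the 13 windows, from 4 genes, and in 53.7% of protein-coding windows. All 4 windows of H3-3A are among the 7, and some of these overlap, so the windows are not independent.

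The study is about C-rich sequences that can fold into i-motifs and about G-quadruplexes, so runs of C and G on the coding strand were searched in the same windows. Stretches with 4 tracts of at least 3 C, with loops of up to 7 bases, were found in 3 of the 13 windows, from H2AZ1 and H3-3A, and in 16.1% of protein-coding windows. Those of H3-3A overlap and have 1 stretch in common. The corresponding search for G found 3 of the 13 windows, from H3-3A and MACROH2A1, and 18.0% of protein-coding windows. Of the C-rich stretches, 1 of H2AZ1 lies at chr4:99950488-99950513 on the minus strand and 1 of H3-3A at chr1:226062252-226062269 on the plus strand. Of the G-rich ones, 1 of MACROH2A1 lies at chr5:135399345-135399365 on the minus strand. They are shown with the tracts in capitals.
H2AZ1: CCCttcttctCCCCCgttCCCatCCC
H3-3A: CCCCtCCCtCCCCtCCCC
MACROH2A1: GGGtaGGGcgcGGGcccGGGG
The other 6 genes held no such stretch in these windows, among them the 4 with high expression and also H2AJ and H2AX with their low measured levels. A match of letters does not show that a structure forms, and the mapping of such structures in these cells was not analysed here.

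The replacement variants were set beside the 68 replication-dependent histone genes in the same libraries. The 9 variant genes summed to 31931, 29733 and 32089 counts in replicates 1 to 3, and the 68 replication-dependent genes to 6457, 8229 and 6445. The variants thus held 83.2%, 78.3% and 83.3% of the counts of these 2 groups, with other histone variants left out. In TPM, where the short replication-dependent transcripts gain from the division by length, the variants held 55.1%, 47.5% and 57.3%. Priming was at the poly(A) tail, which replication-dependent mRNA usually lacks, so these are not shares of all histone mRNA in the cells. The part of the priming in them was not tested. Of the 68 genes, 37 were expressed and 6 were high, led by H4C3 with 1776 ± 879 TPM and the linker histone gene H1-2 with 510 ± 156 TPM (SD, n = 3). In TPM the 2 sums, 3135 ± 741 for the variants and 2864 ± 1214 for the replication-dependent genes (SD, n = 3), differed by less than their SDs.

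Of 15 other histone variant genes, 3 were expressed and 9 had no counts. Among them CENPA, the H3 variant of centromeres, had 29.6 ± 5.10 TPM (SD, n = 3).

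The factors that handle these histones were also measured. Of 7 genes of H3.3 deposition, 5 were expressed, with ASF1A, a chaperone that passes H3 and H4 to other chaperones, at 117 ± 30.3 TPM and ATRX, which places H3.3 at repeats, at 35.5 ± 11.1 TPM (SD, n = 3). HIRA and DAXX, the main H3.3 chaperones, had 0 counts in every replicate. Of 9 genes of H2A.Z deposition, 4 were expressed, led by YEATS4 with 86.8 ± 10.3 TPM and RUVBL1 with 52.1 ± 36.4 TPM (SD, n = 3), and VPS72, which binds H2A.Z, had 0 counts. Neither of the 2 genes of H2A.Z removal, ANP32E and INO80, reached 1 TPM. Of 5 genes of H2AX phosphorylation and the response to it, 4 were expressed, with the kinases PRKDC at 37.1 ± 1.19 TPM and ATM at 10.9 ± 2.73 TPM (SD, n = 3). MDC1, which reads the mark, had 0 counts. Of 6 general histone chaperones, 5 were expressed, led by the FACT subunit SUPT16H with 412 ± 178 TPM and ASF1B with 222 ± 54.1 TPM (SD, n = 3), and NAP1L4 had 0 counts. The last 300 bases of the canonical transcript were wholly shared in HIRA, DAXX and NAP1L4, and also in CENPA, which was expressed. They were 0.333% own in ANP32E, 1% in SUPT16H, 4.33% in INO80 and 100% in MDC1. Levels are sums over all transcripts of a gene, and the part of the shared ends in these values was not tested.

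Several of the variant genes share a start or overlap with a noncoding RNA gene, and the strand setting of the counting is not given in the sources used here. The counts of these neighbours were few. H1-10-AS1 had 2, 1 and 0 counts, H2AZ1-DT had 4, 4 and 15, H3-3A-DT had 8, 6 and 21, and H2AZ2-DT had 20, 8 and 50. H1-10 and H2AZ2 had 1293 or more counts in every replicate, whereas the neighbours of H2AZ1 and H3-3A had at least as many counts as the gene itself in each replicate.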

How the data were processed

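RNA-seq of HEK293T was performed by the authors in 3 biological replicates with QuantSeq 3′ mRNA-seq libraries and 75-base reads. The labels call the material genomic DNA, whereas the extraction protocol and the paper describe total RNA, and the values are treated as RNA-seq. The submitters' processing notes name Trimmomatic 0.38.0, HISAT2 2.2.1, featureCounts (listed with version 2.2.1) and hg38. The annotation release and the treatment of reads on several transcripts are not given in the sources used here.

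The deposited counts are whole reads per transcript without normalization, for 247541 transcripts. The deposited TPM is the count divided by the deposited transcript length, in bases, and rescaled to 1000000 per library. Identifiers were matched to GENCODE v44 on GRCh38, which placed 223558 transcripts in 61193 genes. The other 23983 stayed in the totals only. Counts and TPM were summed per gene and averaged over replicates (SD, n = 3), and CPM is the count per 1000000 of the library total. No count model was fitted, since there is 1 condition. Genes with a mean of at least 1 TPM were taken as expressed, and quartiles were over these genes. Ratios within pairs were tested by exact sign-flip permutation, two-sided. Shares of counts have 95% Wilson intervals.

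Own bases were counted over listed transcripts on the same strand, and the last 300 exonic bases stand for the 3′ end. Copies of these ends were searched in the genome with BLAST 2.17.0+. Pseudogenes were compared by shared 31-base words. Promoters were taken from RefSeq windows on GRCh38.p14. The named genes are the 9 variants, the 2 highest of each other list, pseudogenes sharing at least 90% of their words, and the neighbours of the highest variant in level, apart from items that are not reported here, and any others are named for a count of 0, as markers, or as said. These genes and lists were chosen with earlier results of these data known. The summing of levels and the sequence search were tested on simulated data. The simulated counts were drawn for each transcript separately, so the treatment of reads on several transcripts was not tested. The alternatives were CPM, mitochondrial genes left out, the most counted transcript alone, the median of replicates, pseudogene counts added, a pseudocount, other definitions of expressed genes, and each replicate left out in turn. Python 3.11.15, numpy 2.4.6, pandas 2.3.3, scipy 1.17.1 and matplotlib 3.10.9 were used.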

Additional observations from a re-analysis of the deposited data

How the results depend on the processing

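The 3 ratios kept their sign under every alternative run. Each alternative used the counts per transcript as deposited, so the limit on shared 3′ ends was not tested by them. For H3-3B to H3-3A, the log2 ratio of 12.48 became 13.58 in CPM, 13.52 for the most counted transcript alone (n = 1), 10.13 with a pseudocount of 1 TPM and 5.82 with the pseudogene added, and lay between 11.90 and 13.06 with a replicate left out. For H2AZ1 to H2AZ2, −8.37 became −9.37 in CPM and −5.87 with the pseudocount, and lay between −8.86 and −7.89 with a replicate left out. For MACROH2A1 to MACROH2A2, −7.90 became −6.12 in CPM, −8.98 for the most counted transcript alone and −6.63 with the pseudocount, and lay between −8.17 and −7.68 with a replicate left out. The median level of the 9 genes, 5.25 TPM, became 7.68 with mitochondrial genes left out, 2.65 for the most counted transcript alone and 22.5 with the pseudogene added, where H3-3A with H3P6 is the median, and lay between 4.53 and 6.54 with a replicate left out. MACROH2A1 had a mean of 1.07 TPM with mitochondrial genes left out, past the level taken as expressed. The number of high genes stayed 4 except with expression set at a mean of at least 10 TPM, where H2AZ2 fell below the quartile and it was 3. No paired analysis was possible because there is 1 group of samples. Levels of genes with under 10 counts are limited by depth, and those with shared 3′ ends by the counting per transcript.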
